A study of Saccharomyces cerevisiae with 180 samples.

Results

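Haploid yeast segregants that lacked transcript signal of the ASP3 asparaginase genes were compared with segregants that had it. The segregants were progeny of the laboratory strain BY4716 and the vineyard-derived strain RM11-1a, which is called RM11 here, the name under which the labels give the parental cultures. A segregant was placed in the class without ASP3 signal, which resembles RM11, when its ASP3-1 value lay below -3 on the log2 scale. It was placed in the class with ASP3 signal, which resembles BY4716, when the value was -3 or above. This gave 42 segregants without and 44 with ASP3 signal, of 86 segregants and 90 cultures in all. The classes were therefore chosen by measured values of ASP3-1, and no test was made on any ASP3 copy. As background, RM11-1a is of mating type a with deletions of LEU2, URA3 and HO, whereas BY4716 is of mating type alpha with a deletion of LYS2. Segregants of both classes can carry any mixture of these alleles.

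RNA of each culture was compared with 1 pool of BY4716 RNA on 2 arrays with the dyes exchanged. The mean of both arrays is the culture value, or the value of 1 array where the other has none for that gene. Values are log2 ratios of the culture over the pool, so 0 means the level of the pool and -1 means a level 2-fold lower. There were also 2 cultures of RM11 and 2 of BY4716, which are given as a description. Each segregant is a different genotype grown once, so the spread within a class includes all other segregating variation. The growth medium is not given in the sources used here.

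ASP3 encodes asparaginase II, an enzyme of the cell wall and periplasm that splits extracellular asparagine and is known to be induced when nitrogen is scarce. In the laboratory strain its copies lie in a tandem repeat beside the ribosomal DNA on the right arm of chromosome XII. In a haploid cross, DNA near a gene is usually inherited with it, so segregants that share an ASP3 allele tend to share alleles of its neighbours. A difference between the classes therefore cannot be assigned to ASP3 rather than to a linked allele, since these cannot be told apart here.

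The 4 ASP3 copies describe how the segregants were divided. ASP3-1 (YLR155C) had a lowest, median and highest value of -9.995, -5.89 and -4.25 in segregants without signal, against -2.68, 0.22 and 1.22 in those with signal. ASP3-3 (YLR158C) lay between -9.65 and -3.71 without signal, median -6.73, against -3.39 to 0.78 with signal, median 0.24. The medians in segregants without signal were close to the RM11 means of -5.86 for ASP3-1 and -6.49 for ASP3-3, and the medians of the others were near 0, as were both BY4716 means, 0.11 and 0.12. ASP3-2 (YLR157C) had medians of -6.66 without and 0.25 with signal, and ASP3-4 (YLR160C) had medians of -4.07 and 0.19. The copies are near-identical, and whether a probe reads a single copy was not tested. LEU2 and URA3, which RM11 lacks, averaged -5.68 and -4.66 in the RM11 cultures, so values of this size are reached with no transcript of the gene, and how far below 0 they lie was not read as a fold change.

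**Figure D1:**
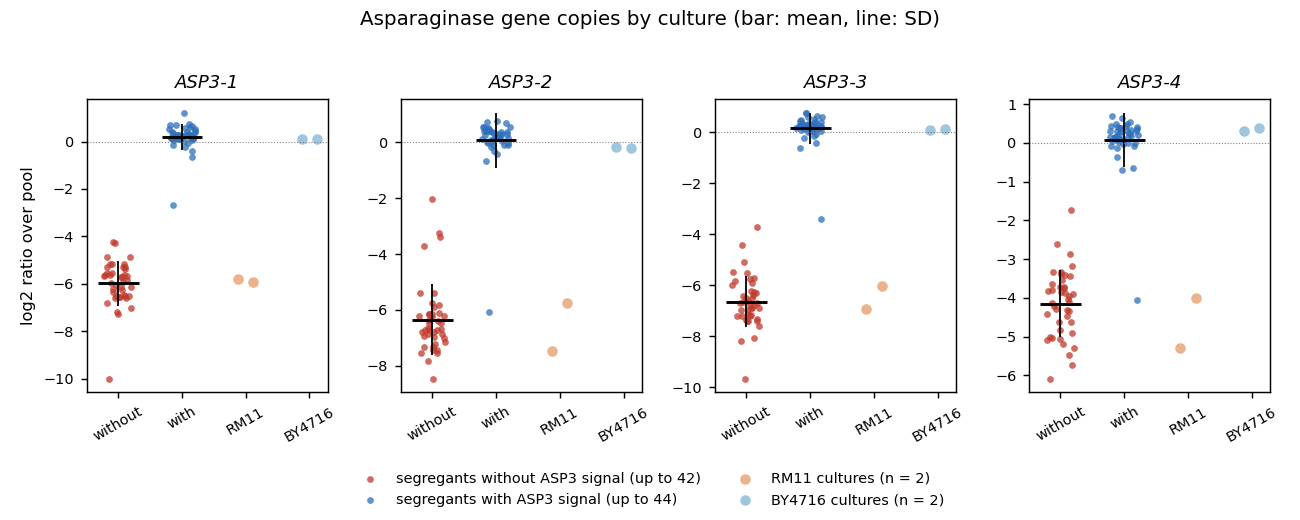
Culture values of the ASP3 copies (vertical axis, log2 ratio over the BY4716 pool) in 42 segregants without ASP3 signal, 44 with it, 2 RM11 and 2 BY4716 cultures, 1 point per culture. The classes form separate clusters in ASP3-1, apart from 1 segregant at -2.68, just above the limit of -3.

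A single segregant went against its class. Its ASP3-1 value of -2.68 was the mean of -5.21 on the Cy3-titled array and -0.16 on the Cy5-titled array. ASP3-3 likewise stood at -6.79 on the Cy3-titled array and 0.02 on the Cy5-titled array. On both arrays ASP3-2 was low, at -5.999 and -6.13, and so was ASP3-4, at -4.43 and -3.7. Its arrays correlated over genes with r of 0.472, against class medians of 0.795 without and 0.713 with signal. The next values to the limit were -4.25 and -4.29 on the side without signal, and -0.64 and -0.40 on the other. Left out, it changed none of the 22 calls given below, and every ASP3 value of the other 43 segregants with signal lay at or above -0.70.

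The shares of other parental alleles differed between the classes, and no test was made on them. LEU2 lay below -3 in 25 of 42 segregants without signal (59.5 percent) and in 19 of 44 with signal (43.2 percent). URA3 lay below -3 in 23 (54.8 percent) and 21 (47.7 percent), and mating type a, read from STE2 and STE3, was found in 23 (54.8 percent) and 16 (36.4 percent). Calls that ended with LEU2, URA3 and mating type as covariates are named beside the gene.

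The comparison over all other genes used limma on the 5563 genes measured in 80 percent or more of the segregants. At a Benjamini-Hochberg adjusted p under 0.05, 22 genes passed (0.395 percent), with 15 higher (0.27 percent) and 7 lower (0.126 percent) in segregants without ASP3 signal. At an unadjusted p under 0.05, 820 genes passed. On the right arm of chromosome XII, whose genes have systematic names starting with YLR, 11 of 414 genes passed (2.66 percent), 6 higher and 5 lower. On the other chromosomes 11 of 5090 passed (0.216 percent), 9 higher and 2 lower. None of 59 genes on the left arm of chromosome XII passed in limma, and 5 of them had an unadjusted p under 0.05.

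The 11 genes of the right arm lay in 1 stretch around the ASP3 copies, from RRN5 (YLR141W) to YLR179C in gene order. They include YLR156W, YLR159W and YLR161W, which belong to the ASP3 repeat that the split was read from. In this stretch, whose ends were set by the called genes, 11 of 33 tested genes passed (33.3 percent), and the median size of a difference was 0.11 log2 units. None of the other 381 tested genes of the arm passed. The median size of a difference was 0.054 over the whole right arm and 0.053 over all genes tested.

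**Figure D2:**
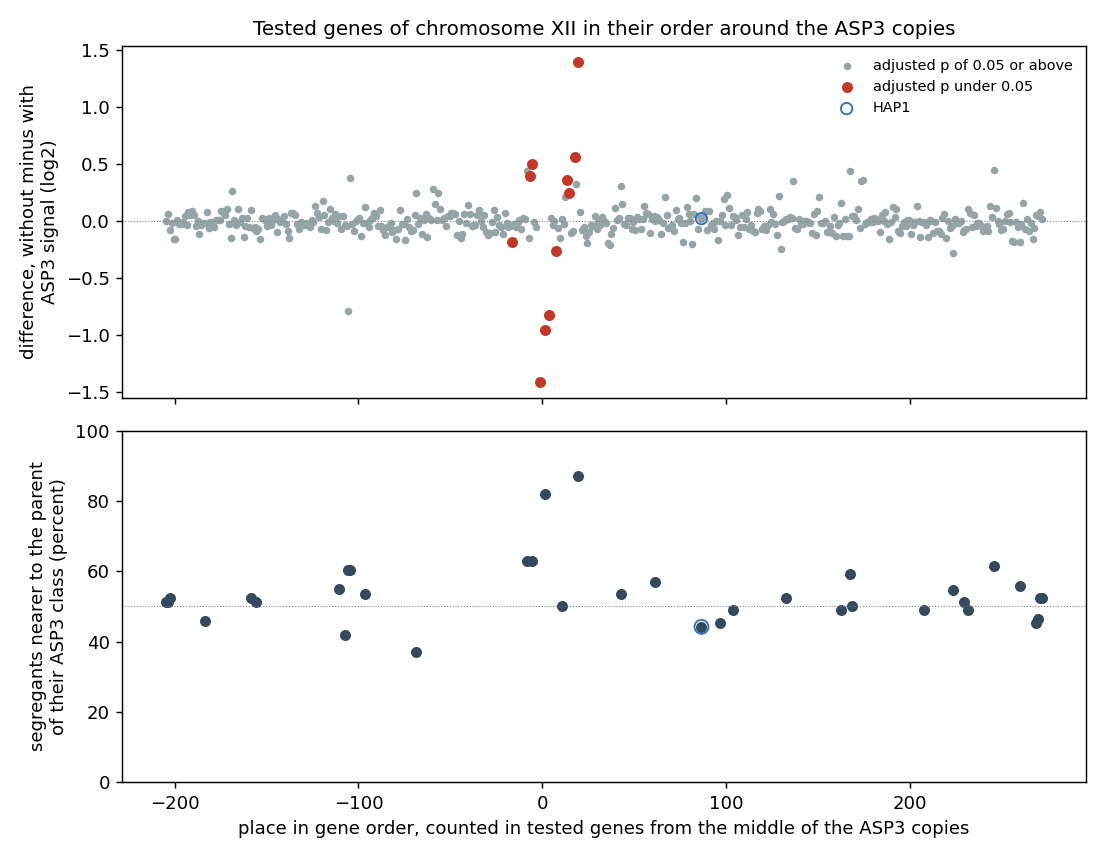
The upper panel gives the difference between segregants without and with ASP3 signal (vertical axis, log2) for each tested gene of chromosome XII. Genes stand in chromosomal order (horizontal axis, rank by start position from the middle of the ASP3 copies, not distance). The lower panel gives, for genes whose parental means differ by at least 1 log2 unit, the percent of segregants nearer to the parent of their ASP3 class. The 11 genes past the threshold lie together around the position of the ASP3 copies, and HAP1, farther along the right arm, lies at 0.02.

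TAG1 and PCD1 were higher and PUS5 was lower in segregants without signal, by small differences that most segregants shared. TAG1 (YLR173W), a vacuolar membrane protein that acts in ending autophagy, had a lowest, median and highest value of -0.06, 0.34 and 0.75 in segregants without signal, against -0.37, -0.06 and 0.62 in those with signal. All 42 segregants without signal lay above the median of the others, and the ranges overlapped. The difference was 0.35 log2 units (SE 0.04), or 1.28-fold, with a limma adjusted p of 2.74e-11. PCD1 (YLR151C), a peroxisomal pyrophosphatase that cleaves coenzyme A, ranged from -0.15 to 0.69 without signal, median 0.24, against -0.79 to 0.41 with signal, median -0.15. Again all 42 segregants lay above the median of the other class, and the difference was 0.39 (SE 0.04, limma adjusted p = 8.92e-11). PUS5 (YLR165C), a pseudouridine synthase of mitochondrial ribosomal RNA, was lower by 0.27 (log2 -0.27, SE 0.04, limma adjusted p = 2.56e-06), at -0.96 to -0.18 without signal, median -0.46, against -0.61 to 0.55 with signal, median -0.23. Here 39 of 42 segregants without signal lay below the median of those with it.

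The largest rise of the stretch was in YLR179C, to which no role is given here. Its lowest, median and highest values were -1.13, 1.605 and 2.86 in segregants without signal, against -1.09, 0.03 and 1.82 in those with signal. Of the 42 segregants without signal, 40 lay above the median of the others, while the lowest values of both classes were alike. The difference was 1.39 (SE 0.16), or 2.62-fold, with a limma adjusted p of 2.26e-10. The RM11 cultures stood at 1.36 and 1.67, against 0.07 in both BY4716 cultures, so the class difference was of the size of the parental difference of 1.44. The values of YLR179C also differed with LEU2. Among segregants with LEU2 below -3, the means were 1.795 without and 0.27 with ASP3 signal, and among the others 0.92 and -0.11.

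The other called genes of the stretch outside the repeat differed by less. YLR177W was higher by 0.55 (SE 0.11, limma adjusted p = 0.000577), and 35 of 42 segregants without signal exceeded the median of the others. YLR152C was higher by 0.50 (SE 0.12, limma adjusted p = 0.0321), and IDP2 (YLR174W), the cytosolic NADP-dependent isocitrate dehydrogenase, by 0.24 (SE 0.06, adjusted p = 0.0387). RRN5 (YLR141W), a subunit of the upstream activating factor of ribosomal RNA transcription, was lower by 0.19 (log2 -0.19, SE 0.05, limma adjusted p = 0.0291). With LEU2, URA3 and mating type as covariates, the calls of YLR152C, IDP2 and RRN5 ended, at limma adjusted p of 0.153, 0.103 and 0.0678. All 3 also ended on the arrays of either dye orientation alone, and RRN5 with the first number of the segregant titles as a block (adjusted p = 0.157).

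A further 3 reading frames lie among the ASP3 copies or next to them, and all were lower in segregants without signal. YLR159W had a lowest, median and highest value of -3.84, -0.80 and -0.23 in 40 segregants without signal, against -0.35, -0.03 and 1.00 in 43 with signal. Of these 40, 37 lay below the whole range of the others. The difference was -0.96 (SE 0.11, limma adjusted p = 1.27e-10). YLR156W differed by -1.41 (SE 0.15, adjusted p = 1.18e-11) and YLR161W by -0.83 (SE 0.14, adjusted p = 2.46e-05). Like the ASP3 copies they belong to the repeat, and whether their probes tell its units apart was not tested. The classes were chosen by a gene of this repeat. The differences and p-values of these frames therefore describe the split and are no separate result. None of the 3 was tested on Cy3-titled arrays alone or where both arrays were required. For YLR156W the parental cultures overlapped, at -2.06 and -1.33 in RM11 against -0.82 and -1.48 in BY4716. For YLR159W they did not, at -2.12 and -0.74 against 0.02 and 0.13, and YLR161W lacked a value in 1 culture of each parent.

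**Figure D3:**
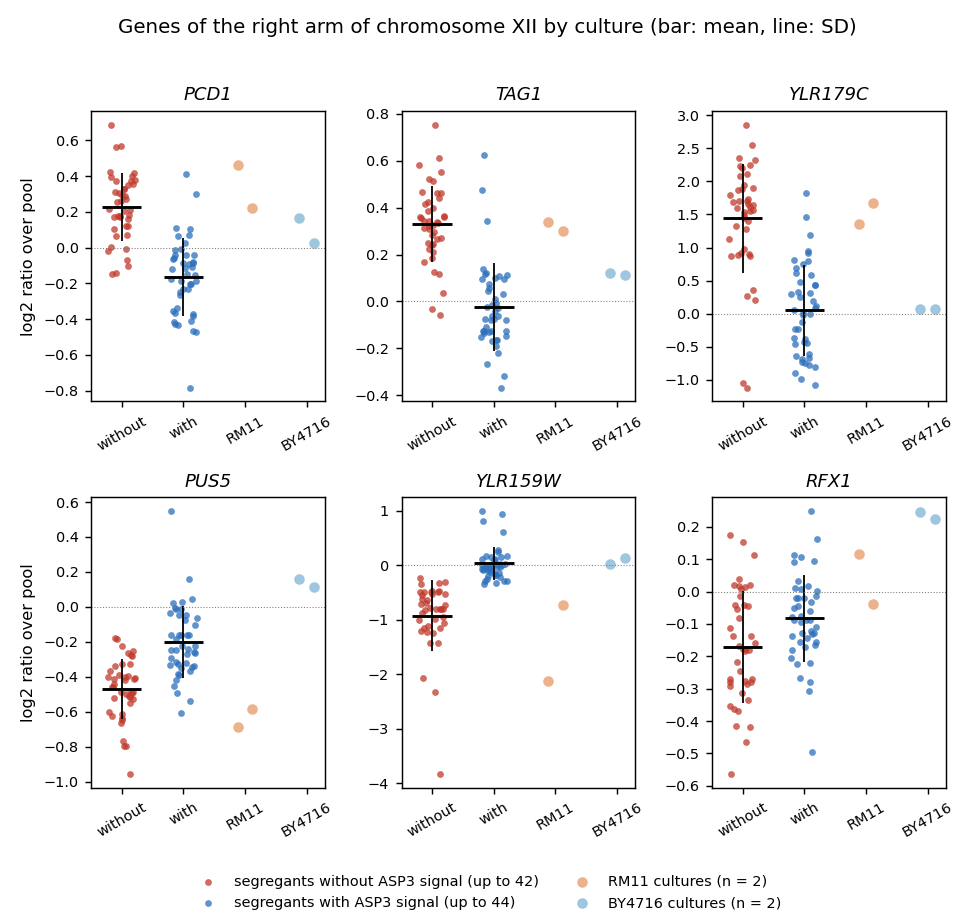
Culture values (vertical axes, log2 ratio over the BY4716 pool) of 6 genes of the right arm of chromosome XII, in segregants without and with ASP3 signal and in the RM11 and BY4716 cultures. Horizontal bars are means and vertical lines SD. In TAG1 and PCD1 all 42 segregants without signal lie above the median of those with signal, and RFX1, added after its values were seen, did not pass the threshold.

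Genes next to ASP3 in gene order did not all differ, and their distance from it in DNA was not measured. Of the 5 measured genes on each side, PCD1, YLR152C, YLR161W and PUS5 passed, and YLR161W belongs to the repeat. ACS2 (YLR153C), an acetyl-CoA synthetase, differed by -0.01 (95 percent interval -0.22 to 0.20, limma adjusted p = 0.968). RNH203 (YLR154C), a subunit of ribonuclease H2, differed by -0.06 (-0.16 to 0.04, adjusted p = 0.600), and STM1 (YLR150W), a ribosome-associated protein, by -0.15 (-0.28 to -0.03, adjusted p = 0.254). On the other side, YLR162W differed by 0.03 (-0.19 to 0.25), MAS1 (YLR163C), a subunit of the mitochondrial processing protease, by -0.04 (-0.13 to 0.04), and SHH4 (YLR164W) by -0.00 (-0.12 to 0.12), with limma adjusted p of 0.934, 0.651 and 0.996.

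HAP1 (YLR256W), the heme-responsive activator of respiratory genes, lies farther along the same arm. It was at -1.62 and -1.97 in the RM11 cultures, against 0.22 and 0.07 in the BY4716 cultures. Its lowest, median and highest values were -1.38, -0.54 and 0.39 in segregants without ASP3 signal, against -1.56, -0.45 and 0.78 in those with signal. The class ranges nearly coincided, and the difference was 0.02 (95 percent interval -0.20 to 0.24, limma adjusted p = 0.962). The share of segregants nearer to the HAP1 level of the parent that their ASP3 class resembles was 44.2 percent.

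The same share was computed for the 36 genes of chromosome XII whose parental means differed by at least 1 log2 unit. It was 87.2 percent for YLR179C and 81.9 percent for YLR159W. For the other 3 genes in the stretch it was 62.8 percent for GID11 and for YLR152C, and 50 percent for UPS2. For the 31 genes outside the stretch it lay between 36.9 and 61.6 percent, with a median of 51.2 percent. These shares are a description, since the ends of the stretch came from the same segregants.

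Away from chromosome XII, 3 of the 4 genes of ribonucleotide reductase were higher in segregants without ASP3 signal, where 0.27 percent of all genes tested passed as higher. These genes were on none of the lists used here and were put together after the calls were seen, so their count is a description. The enzyme makes deoxyribonucleotides for DNA synthesis and repair, and consists of large subunits encoded by RNR1 and RNR3 and small subunits encoded by RNR2 and RNR4. RNR3 (YIL066C), on chromosome IX, had a lowest, median and highest value of -0.88, 0.69 and 2.76 without signal, against -0.77, -0.17 and 1.63 with signal. It was higher by 0.86 (SE 0.13), or 1.81-fold, with a limma adjusted p of 3.38e-06. RNR2 (YJL026W), on chromosome X, ranged from -0.04 to 1.26 without signal, median 0.58, against -0.48 to 0.69 with signal, median 0.11. For both genes 38 of 42 segregants without signal lay above the median of the others, and the ranges overlapped. RNR2 differed by 0.43 (SE 0.06, limma adjusted p = 1.05e-08).

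RNR4 (YGR180C), on chromosome VII, was higher by 0.30 (SE 0.07, limma adjusted p = 0.0121), with medians of 0.30 without and -0.05 with signal. Its call ended on the Cy5-titled arrays alone (adjusted p = 0.0657) and with the first number of the segregant titles as a block (adjusted p = 0.0876). RNR1 (YER070W), named after its values were seen, differed by -0.05 (95 percent interval -0.20 to 0.10, limma adjusted p = 0.788). Within segregants of the LEU2 class below -3, the means of RNR2 were 0.50 without and 0.13 with ASP3 signal, and within the other LEU2 class 0.66 and 0.13.

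Across the 86 segregants, which share the pool and the arrays between genes, RNR2 correlated with RNR4 at r = 0.679 (rho 0.655) and with RNR3 at r = 0.532 (rho 0.559). Within the class without signal, r was 0.571 between RNR2 and RNR4 and 0.286 between RNR2 and RNR3, and within the class with signal 0.613 and 0.215. RNR3 and RNR4 correlated at r = 0.363 over all segregants, at 0.0549 without signal and at 0.386 with signal. RNR2 and RNR1, the gene without a call, correlated at r = 0.218 over all segregants, at 0.478 without signal and at 0.142 with signal.

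Known regulators of ribonucleotide reductase were looked up after these values were seen. RFX1 (YLR176C), a DNA-binding repressor of RNR2, RNR3 and RNR4, lies within the called stretch, between IDP2 and YLR177W in gene order. Its transcript had a lowest, median and highest value of -0.56, -0.18 and 0.17 without ASP3 signal, against -0.49, -0.09 and 0.25 with signal. The difference of -0.09 (95 percent interval -0.16 to -0.02) did not pass over all genes, with a limma adjusted p of 0.238. SML1, an inhibitor protein of the enzyme, differed by 0.08 (-0.03 to 0.18, adjusted p = 0.489), and DUN1, a checkpoint kinase, by 0.04 (-0.10 to 0.19, adjusted p = 0.795 in limma). These values concern transcript levels, and no protein or sequence was measured.

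The largest difference of any tested gene was in GEX1 (YCL073C), a glutathione exchanger gene on the left arm of chromosome III. Its lowest, median and highest values were -3.72, -2.14 and -0.95 in segregants without ASP3 signal, against -1.67, -0.55 and -0.05 in those with signal. All 42 segregants without signal lay below the median of the others, and 34 lay below their whole range. GEX1 was 2.99-fold lower (log2 -1.58, SE 0.12, limma adjusted p = 1.10e-19). The RM11 cultures stood at -2.96 and -3.80, against 0.09 and 0.04 in the BY4716 cultures, so both segregant classes had medians between the parents.

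LEU2 lies on the same arm as GEX1, and the share of segregants with LEU2 below -3 differed between the classes. Among segregants with LEU2 below -3, GEX1 averaged -2.25 ± 0.70 without ASP3 signal (SD, n = 25) and -0.66 ± 0.34 with it (n = 19). Among the others it averaged -2.20 ± 0.67 (n = 17) and -0.64 ± 0.38 (n = 25), so the difference was as large in both LEU2 classes. Its close copy GEX2 (YKR106W) on chromosome XI, named after its values were seen, differed by -0.02 (95 percent interval -0.18 to 0.15, limma adjusted p = 0.945). Whether the probes of GEX1 and GEX2 tell these genes apart was not tested. VBA3 (YCL069W), a vacuolar amino acid transporter gene near GEX1 and likewise low in RM11 at -2.76 and -3.79, was also named after its values were seen and differed by 0.15 (-0.12 to 0.41, adjusted p = 0.618).

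**Figure D4:**
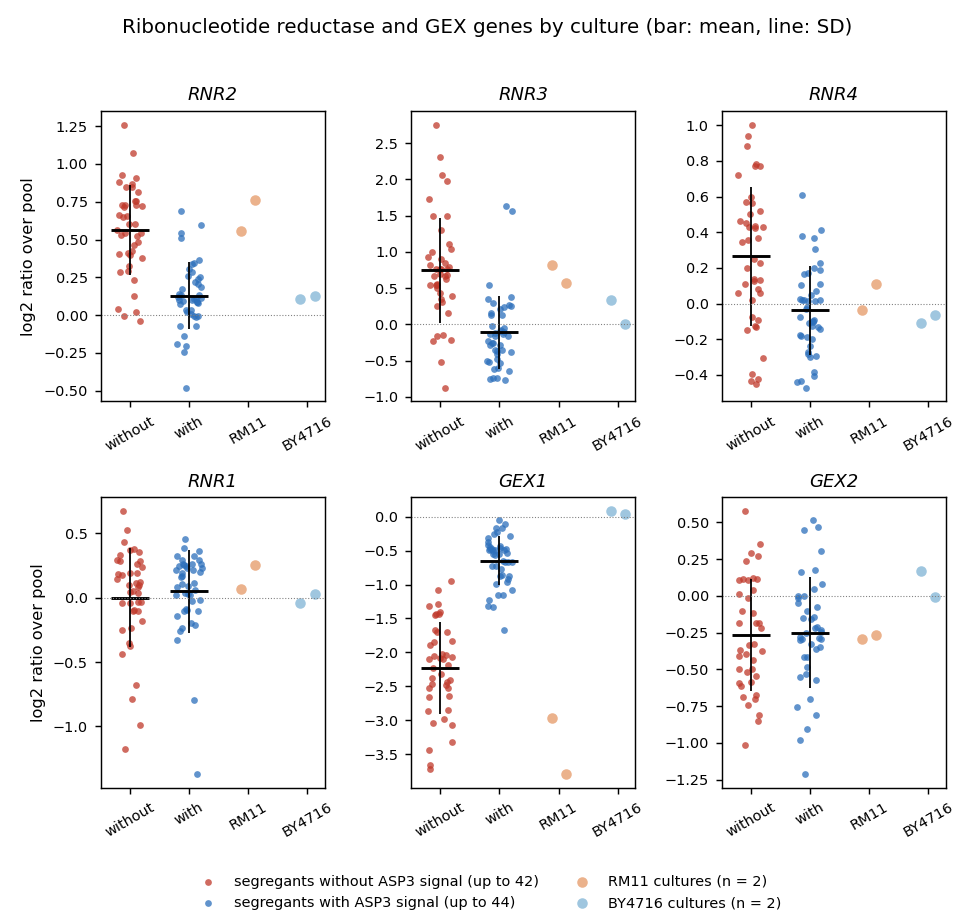
Culture values (vertical axes, log2 ratio over the BY4716 pool) of ribonucleotide reductase and glutathione exchanger genes outside chromosome XII, in segregants without and with ASP3 signal and in the RM11 and BY4716 cultures. Horizontal bars are means and vertical lines SD. GEX1 is lower without signal in all 42 segregants than the median of the others, RNR2, RNR3 and RNR4 are higher on average, and GEX2 and RNR1 did not pass the threshold.

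A further 7 genes on other chromosomes passed. FRD1 (YEL047C), the soluble fumarate reductase, was higher by 0.39 (SE 0.08, limma adjusted p = 0.00523), and 38 of 42 segregants without signal lay above the median of the others. PET20 (YPL159C), a mitochondrial protein needed for respiratory growth, was higher by 0.21 (SE 0.05, adjusted p = 0.00686). ISN1 (YOR155C), the inosine monophosphate nucleotidase, was higher by 0.19 (SE 0.04, adjusted p = 0.0100), and FSH3 (YOR280C), a putative serine hydrolase, by 0.13 (SE 0.03, adjusted p = 0.0263). AIM17 (YHL021C) was higher by 0.57 (SE 0.14, limma adjusted p = 0.0321) and YPR127W by 0.28 (SE 0.07, adjusted p = 0.04999). VPS74 (YDR372C), which holds glycosyltransferases in the Golgi, was lower by 0.16 (log2 -0.16, SE 0.04, limma adjusted p = 0.0186). With LEU2, URA3 and mating type as covariates the calls of AIM17 and YPR127W ended, at adjusted p of 0.0902 and 0.0838. With the title number as a block, those of FRD1 and YPR127W ended, at limma adjusted p of 0.0604 and 0.0655. Without the 5 cultures whose arrays correlated below 0.5, the calls of AIM17, FSH3 and YPR127W ended, at limma adjusted p of 0.05705, 0.0643 and 0.09455. Quantile normalization also ended those of AIM17 and YPR127W (limma adjusted p = 0.0589 and 0.0867).

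The parental cultures, which did not enter the fit, give the same genes measured in other cultures. Of the 22 genes, 20 had values in all 4 parental cultures, and in 14 the RM11 and BY4716 cultures did not overlap and differed in the direction of the classes. Over all 5155 genes with such values, this was so for 33.4 percent. It held for 8 of 9 called genes on chromosome XII, all but YLR156W. Elsewhere it held for 6 of 11, namely GEX1, RNR2, RNR3, RNR4, PET20 and ISN1. RNR2 was at 0.56 and 0.76 in RM11, against 0.11 and 0.13 in BY4716, and RNR3 at 0.82 and 0.57, against 0.34 and 0.01. For RNR4 the parents lay close together, at -0.04 and 0.11 in RM11 against -0.11 and -0.06 in BY4716. VPS74 and YPR127W did not overlap between the parents in the opposite direction. With 2 cultures per strain, no test was made.

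**Figure D5:**
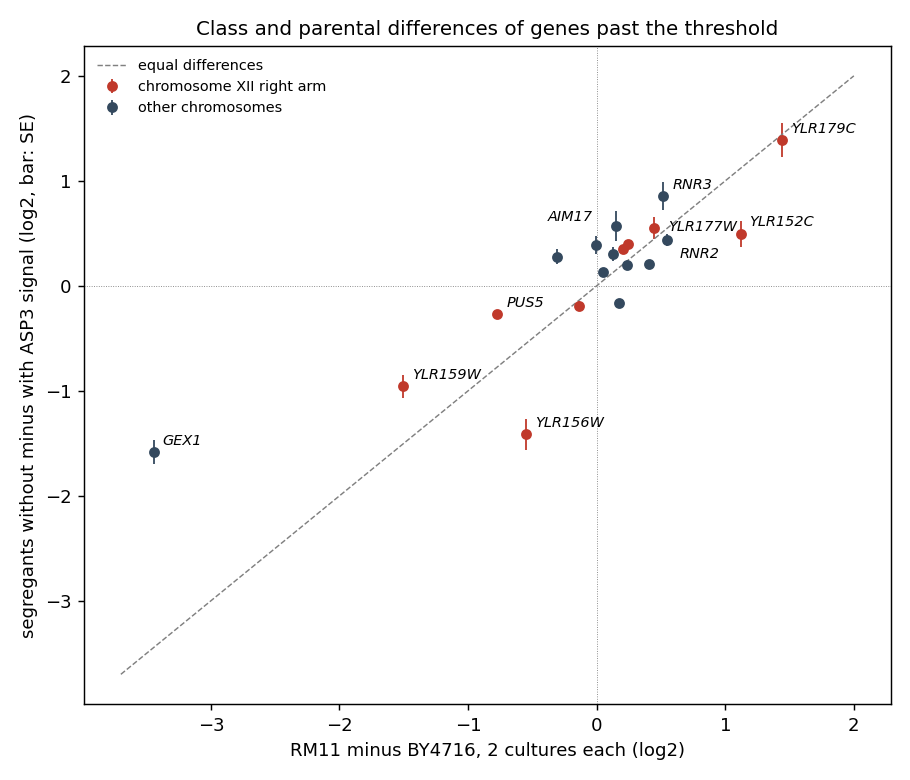
Difference between segregants without and with ASP3 signal (vertical axis, log2, bars SE) against the difference between RM11 and BY4716 (horizontal axis, log2, 2 cultures each) for the 20 called genes with values in all parental cultures. The dashed line marks equal differences. YLR179C lies near it, and GEX1 has a class difference of -1.58 beside a parental difference of -3.44.

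Lists of genes related to the functions of ASP3, HAP1, the ribosomal DNA and the segregating markers held 1 called gene, where 0.395 percent of all genes tested passed. With so low a share over all genes, this count does not set the lists apart from the other genes. Of 284 genes on 14 lists, RRN5, one of 17 genes for silencing and stability of the ribosomal DNA, was called by limma, and with LEU2, URA3 and mating type as covariates none of the 284 was. RRN5 passed in 8 of 15 alternatives. Of the 284 genes, 66 had an unadjusted p under 0.05 (23.2 percent, against 14.7 percent of all genes tested). The median difference was 0.01 for 13 genes of asparagine, aspartate and glutamate metabolism and 0.04 for 26 genes under nitrogen catabolite regulation, against -0.01 for all genes. In those lists 6 and 3 genes had an unadjusted p under 0.05. ASP1, the intracellular asparaginase, differed by -0.22 (95 percent interval -0.37 to -0.08, limma adjusted p = 0.191). It was the lowest of its list, whose highest was GAD1 at 0.65, and the lowest limma adjusted p in that list was 0.0791. PUT4, the proline permease, differed by 0.91 (0.35 to 1.46, adjusted p = 0.163). ASP1 and PUT4 were picked out after their values were seen.

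The heme and oxygen list that holds HAP1 had a median of 0.03 over 21 genes, ergosterol synthesis 0.04 over 25, the respiratory chain and ATP synthase -0.02 over 36 and the TCA cycle 0.00 over 13. Pyrimidine synthesis stood at -0.05 over 9 genes, the silencing list at -0.04 and the amino acid starvation response at 0.13 over 21. Larger medians without a called gene were those of the general stress response (0.38 over 30 genes, 16 with an unadjusted p under 0.05), leucine and branched-chain amino acid synthesis (0.36 over 12, 8 such genes), mating type specific genes (0.23 over 11), daughter cell separation (-0.28 over 10) and RNA polymerase I with ribosome biogenesis (-0.12 over 50, 13 such genes). With LEU2, URA3 and mating type as covariates, the medians were 0.38 for the stress list, 0.23 for leucine synthesis and -0.11 for the mating list, whose sign turned.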

How the data were processed

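The deposited values are log ratios of culture over pool, 1 column per array, read as log2. The base, scanner, background correction and dye normalization are not given in the sources used here. The authors' array medians lay between -0.063 and 0.074. Of 7085 probes, 5645 had 1 gene symbol and 1440 none, and probes of a gene were averaged, giving 5605 genes, 40 with 2 probes. An array held 3769 to 6570 values. Signal intensities were not used, so precision is limited by how many arrays and cultures there were. ASP3-1 had no value on 3 arrays, and those cultures rest on the other array. The RefSeq R64 gene table gave names and gene order only. No sequences were used here.

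Classes were compared with limma 3.58.1 (lmFit, eBayes) in R 4.3.3, without minus with, with p-values adjusted by Benjamini-Hochberg and a threshold of 0.05. The fit was tested on simulated data. Named were up to 12 called genes per direction on the right arm of chromosome XII and up to 12 elsewhere, HAP1, and 5 measured genes on each side of ASP3, with called list members. Other genes are marked as chosen after their values were seen. The rule, classes and lists were chosen with earlier results of these data known. Mating type was taken as a where STE2 exceeded STE3 by more than 4 log2 units. The rule first chosen, the higher of STE2 and STE3, was unreliable, since both lay near each other in the alpha cluster (-1.19 to 1.45, against 5.78 to 12.4). Alternatives covered normalization, dyes, the ASP3 limit, missing values, array quality, a block and covariates.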

Additional observations from a re-analysis of the deposited data

How the results depend on the processing

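Of the 22 called genes, 12 passed under each of 16 alternatives that tested them (GEX1, PCD1, PET20, PUS5, RNR2, RNR3, TAG1, YLR156W, YLR159W, YLR161W, YLR177W and YLR179C), and none changed sign. The count of called genes lay between 15 and 23, with 15 on either dye alone or where both arrays were required. On the right arm of chromosome XII, 5 genes passed on Cy3-titled arrays, 7 on Cy5-titled arrays, 5 where both arrays were required and 7 among genes with a value in every segregant. Each of these alternatives tested fewer genes, 5317, 5417, 5022 and 4743 in that order, against 5563 in the main fit. YLR156W, YLR159W and YLR161W were not tested on Cy3-titled arrays, and YLR161W was not tested on Cy5-titled arrays. A 1.5-fold minimum left 6 genes, 4 on that arm and 2 outside chromosome XII. The alternatives without the culture nearest the limit (22 calls) and with mating type from a difference above 4 log2 units (18 calls, 17 of them shared) were chosen after seeing the data. With the mating type rule first chosen, 17 genes passed, 16 of them shared, and ISN1 did not (limma adjusted p = 0.0857). YLR152C, IDP2, RRN5, FSH3 and VPS74 did not pass on either dye alone, with limma adjusted p from 0.0597 to 0.306. With the first number of the segregant titles as a block, 22 genes passed, 18 of them shared, and FRD1, RNR4, RRN5 and YPR127W did not (adjusted p from 0.0604 to 0.157). Without the 5 cultures whose arrays correlated below 0.5, 1 of them without ASP3 signal, 19 genes passed, 18 of them shared. In that alternative AIM17, FSH3, IDP2 and YPR127W did not pass (limma adjusted p from 0.05705 to 0.101). Uncalled values close to 0 changed sign. HAP1 was -0.01 at a limit of -2 and with ASP3-3 in place of ASP3-1 (-0.01365), -0.0004332 on Cy5-titled arrays and -0.07288 with the title number as a block. ACS2 was 0.001779 with the first covariates and YLR162W -0.03877 with that block. SHH4 was 0.004296 at a limit of -2 and with ASP3-3, 0.002754 on Cy3-titled arrays, 0.006281 with median centring, 0.02451 with that block and 0.001676 without the culture nearest the limit. The cause was not tested. No paired analysis was possible because no segregant has a counterpart of its own in the other class and the parents were not tested. The first number of the titles, which segregants of both classes share, entered only as the block above.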
